A study of Homo sapiens with 14 samples.

Results

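The unfolded protein response of the endoplasmic reticulum (ER) and the amino acid response driven by ATF4 were followed through 44 genes in IMR90 human lung fibroblasts. The genes were taken by symbol: 21 form an ER branch of stress sensors, chaperones, disulfide isomerases and genes of ER-associated degradation (ERAD), and 23 form an ATF4 branch of transcription factors, feedback genes, enzymes and transporters. All 44 were found among the 54628 gene symbols counted in each of 14 libraries.

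Unfolded proteins in the ER are detected by the membrane sensors IRE1 (gene ERN1), PERK (gene EIF2AK3) and ATF6. IRE1 splices the XBP1 mRNA and ATF6 is cleaved to a free transcription factor, and both outputs raise genes for folding and for removing misfolded proteins. PERK, like kinases that sense a shortage of amino acids, phosphorylates a translation initiation factor, which lowers bulk protein synthesis while the ATF4 protein is made, and ATF4 raises genes for making and importing amino acids.

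The study compared untreated cells with cells driven into senescence, a lasting arrest of division, by inflachromene (ICM), a compound known to bind HMGB proteins, at 10 µM over a period of 6 days at most. The groups are untreated cells (WT), untreated cells with an siRNA knockdown of HMGB2 (siHMGB2), ICM-treated cells with no knockdown (ICM), and cells given both ICM and an siRNA to SRRM2 (siSRRM2), BANF1 (siBANF1) or CTCF (siCTCF). Each group has 2 libraries except ICM, which has 4. The knockdowns with and without ICM therefore have different controls, ICM and WT. The titles of these controls name no control siRNA, so transfection and loss of the target cannot be told apart. ICM 3, ICM 4 and the siCTCF libraries carry labels of another form, with a cell line field that reads IMR91 to IMR94 while their titles read IMR90, so ICM 1-2 and ICM 3-4 were kept apart throughout. WT has no library labelled in that form, so treatment and set of libraries cannot be told apart in ICM 3-4 against WT. The protocol names 2 isolates of the cells without tying them to libraries, and nothing says that replicates came from separate cultures, so the p-values measure only the spread between these libraries, which may be technical.

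The libraries held 22336161 to 58257456 gene counts, and levels are given as CPM, each gene's count scaled to a common total of gene counts. Small RNA genes took 3.19% to 6.06% of the total in the 6 libraries of siSRRM2, siBANF1 and ICM 1-2, against 0.005% to 0.008% in the other 8. Reads given to no gene were 35.24% and 26.5% in ICM 1 and 2, against 17.49% and 17.94% in WT. Treatment and library make-up therefore cannot be told apart in ICM 1-2 against WT either. The ICM 1 and 2 libraries stood far apart, with a median chi-square per gene of 48.9 between them, against 0.455 from sampling alone, 3.12 between the WT libraries and 10.1 between ICM 3 and 4. The siBANF1 libraries differed as much (48.0), and the closest replicates were those of siSRRM2 (1.11). For a given fold difference this chi-square grows with depth. ICM 1 and 2 held 48804435 and 54277501 gene counts, against 23906175 and 25369856 in ICM 3 and 4 and 33561766 and 36450212 in WT. Of the targets, HMGB2 went from 27.7 and 28.0 CPM (WT) to 3.18 and 3.52 (siHMGB2), and CTCF from 94.9 and 91.9 (ICM 3 and 4) to 71.5 and 22.97 (siCTCF). For SRRM2, ICM 1 and 2 held 237.8 and 112 CPM, the libraries labelled siSRRM2 76.05 and 76.4, and those labelled siBANF1 58.98 and 17.01. BANF1 was not lower in the latter (16.96 and 36.7 CPM) than in ICM 1 and 2 (13.5 and 32.7). In the libraries labelled siSRRM2, BANF1 was at 34.2 and 33.3 CPM, so under neither labelling was BANF1 below its level in both ICM 1 and 2. The deposited files of these 4 libraries are named for the other knockdown, so the labels siSRRM2 and siBANF1 may be exchanged, and both names below mean only the libraries so labelled. All 10 fibroblast markers were above 1 CPM in every library, and none of 6 epithelial markers reached 1 CPM in any. Of 4 endothelial markers, TEK was at 67.3 and 81.8 CPM in WT, 240.9 and 68.1 in ICM 1 and 2 and 15.3 and 2.88 in ICM 3 and 4. Of 5 immune markers, CD14 was at 12.95 CPM in ICM 1 and 5.50 and 6.25 in siSRRM2, and the summed level of the list was at most 1.52 CPM in WT, siHMGB2, ICM 3-4 and siCTCF.

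Short stretches before the start sites of members are shown first, because the ER branch is known for response elements that can be read in the letters. They come from the RefSeq promoters of GRCh38.p14, in which 38 of the 44 members had an entry, and the 250 bases before each start were searched on both strands. The ER stress response element (ERSE, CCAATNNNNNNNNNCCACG) is read by ATF6 with the CCAAT-binding factor NF-Y, its relative ERSE-II is ATTGGNCCACG, and the C/EBP-ATF response element (CARE, TGATGNAA) is read by ATF4 with a C/EBP partner. The fixed letters of each match are in capitals, and a match on the other strand reads as the reverse complement. HSPA5 (chr9:125241379-125241421, minus strand) and XBP1 (chr22:28800591-28800633, minus strand) show 1 ERSE each, and CALR (chr19:12938372-12938414, plus strand) shows 1 on the other strand. SDF2L1 (chr22:21642102-21642136, plus strand) shows an ERSE-II, and HERPUD1 (chr16:56931954-56932047, plus strand) shows an ERSE-II downstream of a CARE. CHAC1 (chr15:40953250-40953281, plus strand) and ASNS (chr7:97872457-97872488, minus strand) are the members of the ATF4 branch with a CARE.
HSPA5: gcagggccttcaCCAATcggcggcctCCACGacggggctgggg
XBP1: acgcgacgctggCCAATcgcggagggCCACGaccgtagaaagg
CALR: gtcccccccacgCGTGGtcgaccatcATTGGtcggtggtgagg
SDF2L1: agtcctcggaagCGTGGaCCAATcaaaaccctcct
HERPUD1: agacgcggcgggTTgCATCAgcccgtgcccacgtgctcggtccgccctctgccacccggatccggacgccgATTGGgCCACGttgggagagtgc
CHAC1: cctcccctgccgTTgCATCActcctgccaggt
ASNS: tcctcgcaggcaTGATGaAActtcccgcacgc

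An ERSE was found in 7 of the 20 ER members with a promoter entry (XBP1, HSPA5, HSP90B1, CALR, CANX, CRELD2 and PDIA6) and in 25 of 27305 genes in all, or 0.0916%. ERSE-II was found in 3 more (HYOU1, SDF2L1 and HERPUD1) and in 18 genes in all, or 0.0659%. None of the 18 ATF4 members with an entry held either element. CARE was common, in 1061 genes or 3.89%, and among members it was found in CHAC1, ASNS and HERPUD1. CANX had the same ERSE bases matched from different start sites, and no other match overlapped another in these members. A match describes letters only and says nothing about binding.

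**Figure D1:**
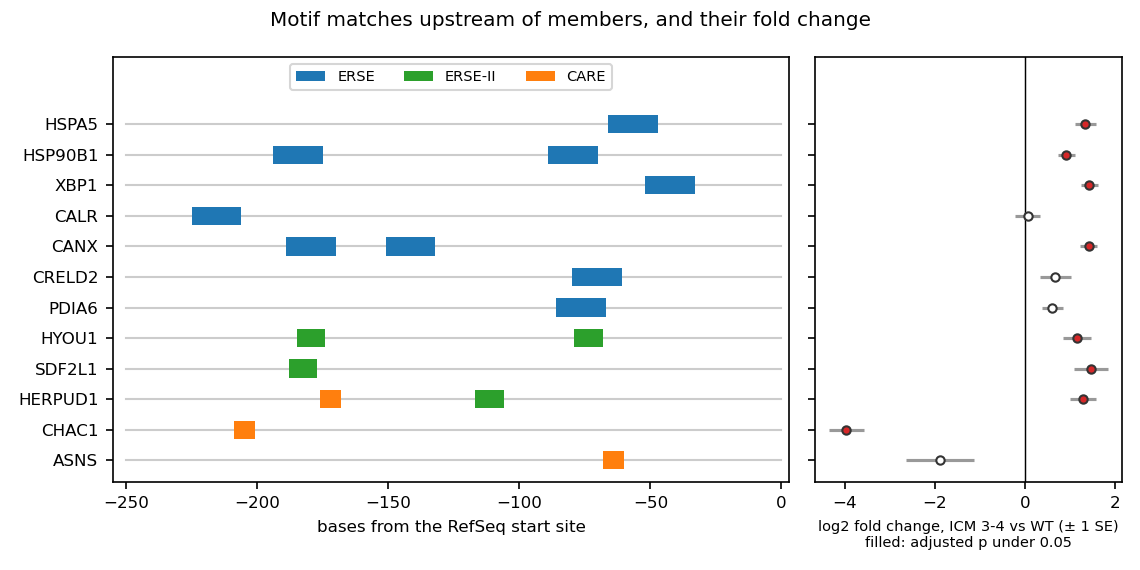
Motif matches in the 250 bases before the RefSeq start of 12 members (left, bases from the start, coloured by motif) and the log2 fold change of each in ICM 3-4 against WT with its standard error (right, filled where the adjusted p was under 0.05). The separate bars of CANX are the same ERSE measured from different start sites. The 10 ER genes with an ERSE or ERSE-II lie at or above 0 on the right, CALR nearest to it, CHAC1 lies below 0 and ASNS, with 10 and 3 counts in ICM 3 and 4, was not called.

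In ICM 3-4, the ER branch stood above WT almost as a whole. Below, a gene rose, fell or was called where edgeR's quasi-likelihood test gave an adjusted p under 0.05 (Benjamini-Hochberg over all genes tested), and ± is the standard error of a log2 fold change. Against WT, 17 of 21 ER genes rose and 0 fell, where 27.8% of the 15677 genes tested rose and 27.3% fell, or 55.2% in all. Both ICM libraries were above both WT libraries for 20 ER genes, where 45.7% of genes were, and below for none, where 35.3% were. The median log2 fold change of the branch was 1.29, beside 0.01 for all genes tested. Under total-count scaling the median of all genes moved to 0.20 and the ER median to 1.47. The 3 sensors and XBP1, 8 of 10 chaperones, 1 of 3 disulfide isomerases and all 4 ERAD genes rose. The summed level of the branch was 9081 and 8149.6 CPM in WT, 20851 and 16584 CPM in ICM 3 and 4, and 23227 and 17174 CPM in siCTCF. It was 6419 CPM in ICM 1 and 10379 CPM in ICM 2, on either side of WT.

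The sensors and XBP1, which acts next after IRE1, all rose. XBP1, the transcription factor made from the mRNA that IRE1 splices, was at 159 and 141 CPM in WT, 195 and 168 in siHMGB2, 156 and 463 in ICM 1 and 2, 122 and 122 in siSRRM2, 159.96 and 368 in siBANF1, 505 and 415 in ICM 3 and 4, and 507 and 478 in siCTCF. It rose in ICM 3-4 (log2 fold change against WT 1.43 ± 0.19, adjusted p = 0.00211 by edgeR's quasi-likelihood test), and ICM 2 was far above ICM 1, which lay at the WT level. Counts per gene do not show which splice form was made. ERN1 rose by 1.89 (edgeR adjusted p = 0.00186), EIF2AK3 by 1.19 (edgeR adjusted p = 0.00173) and ATF6 by 0.66 (edgeR adjusted p = 0.0107) on the log2 scale. ATF6 lost its call without either WT library (adjusted p = 0.17 without WT 1 and 0.143 without WT 2).

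HSPA5 (BiP), the chief chaperone of the ER lumen and the protein that holds the sensors inactive, was at 1977 and 1698 CPM in WT, 1724 and 1529 in siHMGB2, 686 and 1415 in ICM 1 and 2, 951 and 862 in siSRRM2, 1339 and 1268 in siBANF1, 5958 and 4607 in ICM 3 and 4, and 6663 and 4700.4 in siCTCF. ICM 3 and 4 and both siCTCF libraries were above every other library, and all 6 libraries of ICM 1-2, siSRRM2 and siBANF1 were below both WT libraries. HSPA5 rose in ICM 3-4 by 1.34 ± 0.23, adjusted p = 0.00521 (edgeR, log2), or 2.53-fold. The pseudogene HSPA5P1, whose sequence is close to that of HSPA5, took 45.0 to 76.4 CPM in ICM 3-4 and siCTCF and at most 2.28 CPM elsewhere, and reads of such near copies are not always assigned to the right gene.

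HSP90B1 (GRP94), the ER chaperone of the HSP90 family, was at 1719 and 1533 CPM in WT, 1757 and 1340.5 in siHMGB2, 1219 and 2589.9 in ICM 1 and 2, 1638 and 1528 in siSRRM2, 1465 and 2149 in siBANF1, 3528 and 3492 in ICM 3 and 4, and 4658 and 3711 in siCTCF. Its rise in ICM 3-4 was 0.92 ± 0.19, adjusted p = 0.00828 (edgeR, log2), and the call was lost without WT 2 (0.81, adjusted p = 0.0974). DNAJB9, a J-domain co-chaperone of BiP and a marker of XBP1 activity, was at 93.8 and 73.2 CPM in WT, 61.6 and 43.4 in siHMGB2, 60.1 and 250.3 in ICM 1 and 2, 35.7 and 34.8 in siSRRM2, 75.1 and 181 in siBANF1, 480.2 and 443 in ICM 3 and 4, and 655 and 519.7 in siCTCF. It moved most of the ER branch in ICM 3-4, by 2.28 ± 0.20, adjusted p = 0.000692 (edgeR, log2) or 4.87-fold, and ICM 1 was below both WT libraries while ICM 2 was above them. DNAJC3, another J-domain co-chaperone, rose 4.19-fold (2.07 ± 0.16, adjusted p = 0.000589, edgeR, log2), and MANF, a secreted protein that is induced by ER stress, rose 3.35-fold (1.74 ± 0.31, adjusted p = 0.00549).

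SDF2L1, a member of the BiP complexes, was at 33.0 and 24.5 CPM in WT, 21.5 and 23.9 in siHMGB2, 15.0 and 32.0 in ICM 1 and 2, 19.4 and 19.1 in siSRRM2, 24.9 and 32.5 in siBANF1, 121 and 59.2 in ICM 3 and 4, and 115 and 70.2 in siCTCF. It rose in ICM 3-4 by 1.47 ± 0.38, adjusted p = 0.0188 (edgeR, log2), with ICM 4 at 0.489 times ICM 3, the lowest such ratio of the ER branch, and the call was lost without WT 2 (1.24, adjusted p = 0.0631). HYOU1, a large ER chaperone counted at 2.52 to 24.3 CPM, rose by 1.16 ± 0.31, adjusted p = 0.0211 and lost the call without either WT library (adjusted p = 0.0636 without WT 1 and 0.144 without WT 2). CANX, the membrane-bound lectin chaperone, rose by 1.42 ± 0.18, adjusted p = 0.00193 (edgeR, log2).

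CALR, the soluble lectin chaperone related to CANX, was the ER member nearest to WT in ICM 3-4. It was at 2146 and 1976 CPM in WT, 2015 and 2024 in siHMGB2, 1480.1 and 1368 in ICM 1 and 2, 1269.5 and 1254 in siSRRM2, 1462 and 1314 in siBANF1, 2976 and 1893 in ICM 3 and 4, and 2954 and 1908 in siCTCF. In ICM 3-4 it differed from WT by 0.06 ± 0.27, adjusted p = 0.859 (edgeR, log2), with ICM 3 above and ICM 4 below both WT libraries. Without ICM 3 CALR was called lower (-0.40, edgeR adjusted p = 0.0468), and without ICM 4 it was called higher (0.40, edgeR adjusted p = 0.0474). The other members not called in this comparison were CRELD2 (0.68, adjusted p = 0.141), PDIA6 (0.62, 0.066) and PDIA3 (0.55, 0.054), each with both ICM libraries above both WT libraries. CALR, CRELD2 and PDIA6 all hold an ERSE. PDIA6 also shares 25.2% of its exon bases with a gene on the opposite strand (GENCODE v29), and reads of the pair cannot be told apart if the counting ignored strand, which is not given in the sources used here.

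PDIA4, a disulfide isomerase, was at 539.8 and 443 CPM in WT, 478 and 463 in siHMGB2, 435 and 782 in ICM 1 and 2, 708 and 723 in siSRRM2, 538 and 735 in siBANF1, 1587 and 1106 in ICM 3 and 4, and 1547 and 1132 in siCTCF. It rose in ICM 3-4 by 1.27 ± 0.25, adjusted p = 0.00804 (edgeR, log2), and just missed the call without WT 2 (1.11, adjusted p = 0.0515). HERPUD1, an ER membrane protein that organizes the ERAD machinery, was at 117 and 101 CPM in WT, 124 and 131 in siHMGB2, 112 and 270.1 in ICM 1 and 2, 94.4 and 93.9 in siSRRM2, 116 and 224 in siBANF1, 378 and 226 in ICM 3 and 4, and 419.9 and 249 in siCTCF. It rose by 1.29 ± 0.29, adjusted p = 0.0115 (edgeR, log2) and also just missed the call without WT 2 (1.16, adjusted p = 0.0526). SYVN1, the ubiquitin ligase of ERAD, rose by 1.80 ± 0.16, adjusted p = 0.000707, its partner SEL1L by 0.57 ± 0.15, adjusted p = 0.019 and the ERAD lectin EDEM1 by 1.46 ± 0.23, adjusted p = 0.00381 (edgeR, log2). SEL1L lost the call without either WT library (adjusted p = 0.244 without WT 1 and 0.193 without WT 2).

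**Figure D2:**
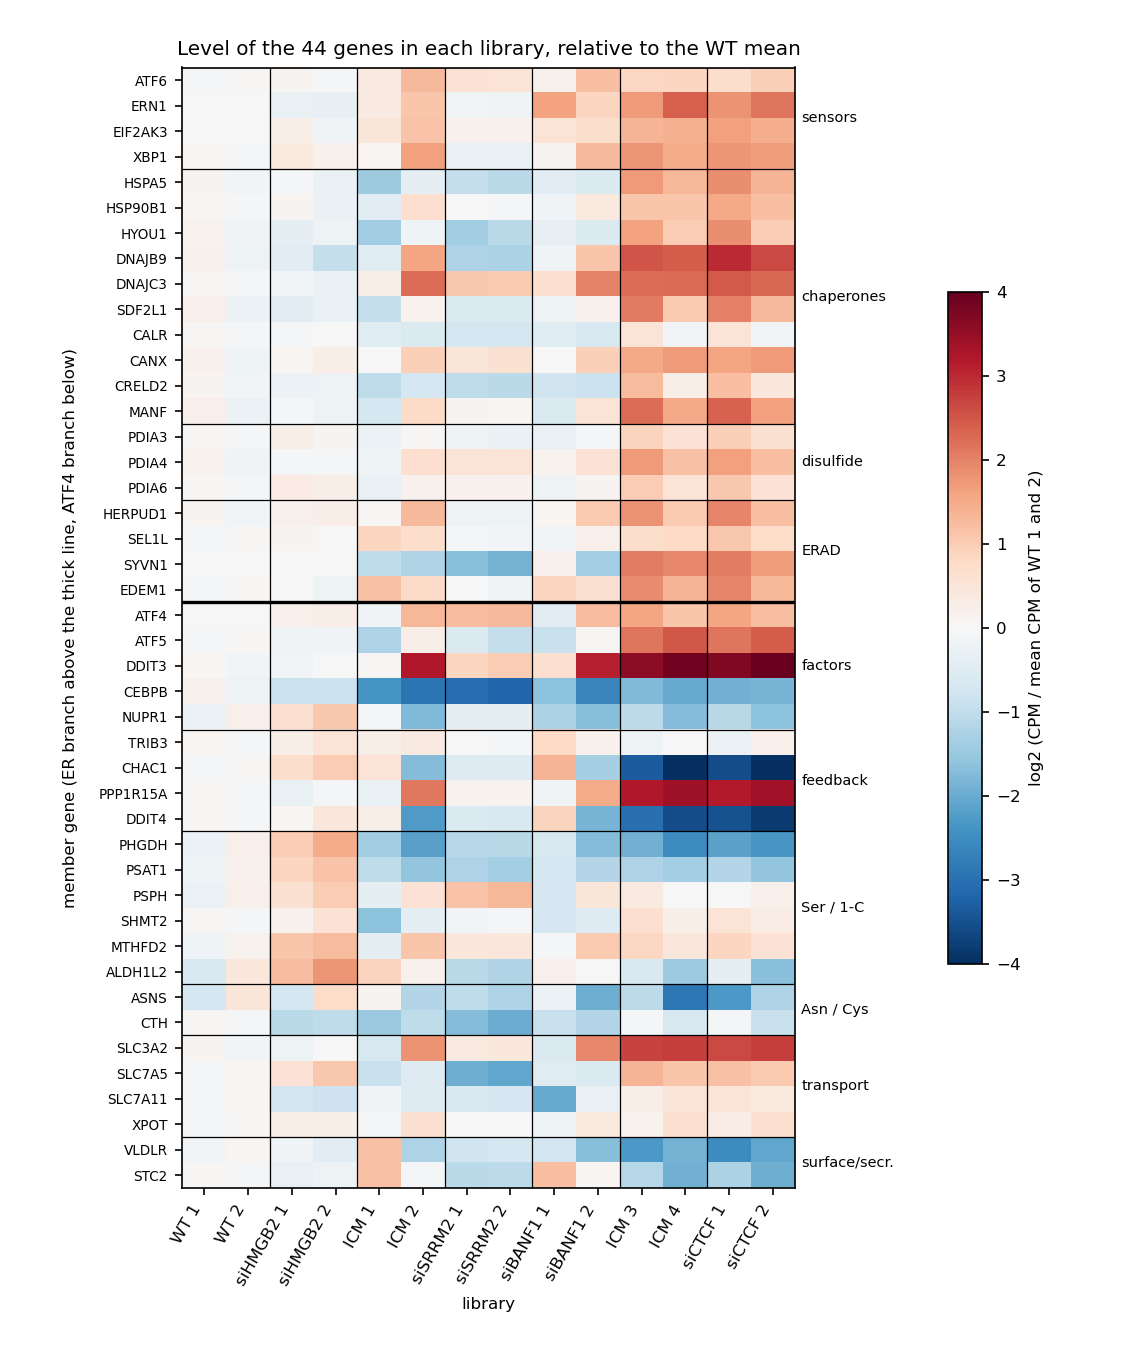
Level of each member in each of the 14 libraries as log2 of its CPM over the mean CPM of WT 1 and WT 2, with roles on the right. ER genes above the thick line are red almost throughout in ICM 3-4 and siCTCF, ICM 1 and ICM 2 differ from each other, and the ATF4 branch holds both deep red (DDIT3, PPP1R15A, SLC3A2) and deep blue genes (CHAC1, DDIT4).

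Other genes of ER folding and transport, from a list of 39 that are not members, were read in the same comparison. All 39 were tested, 22 rose and 3 fell, beside 27.8% and 27.3% of all genes, with a median of 0.64 (log2). Of the 22 genes for translocation and folding, 14 rose and 1 fell. The largest change was that of EDEM2 (2.91 ± 0.97), which was counted at only 1.11 CPM in ICM 3-4 and 0.12 CPM in WT, and the lowest was MBTPS1, the protease that cleaves ATF6 (-1.01 ± 0.24, adjusted p = 0.0151, edgeR, log2). Genes outside the members that hold an ERSE or ERSE-II were also read: 20 were tested, 10 rose and 2 fell, with a median of 0.46.

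Fibroblast markers and mitochondrial mRNA also differed between these libraries. The summed level of the markers was 24550 and 32480 CPM in WT, 37030 and 44180 in siHMGB2, 19920 and 4972 in ICM 1 and 2, 12280 and 11840 in siSRRM2, 15630 and 5477 in siBANF1, 4907 and 2433 in ICM 3 and 4, and 4965 and 2060 in siCTCF. Against WT, 9 of the 10 fell in ICM 3-4, with a median of -3.38 (log2). The ER sums were 16584 to 23227 CPM in ICM 3-4 and siCTCF, the libraries with the lowest marker sums and the highest ER sums. In ICM 1 (6419 CPM), siBANF1 1 (7314 CPM) and siSRRM2 (7164 and 6900 CPM) both the ER sums and the marker sums were below WT. In ICM 2 (10379 CPM) and siBANF1 2 (9127 CPM) the marker sums were below WT. Their ER sums were above both WT libraries (9081 and 8149.6 CPM). In siHMGB2 the marker sums were above WT while the ER sums (8876 and 8045 CPM) were not. A lower share of cells with these mRNAs and less of the mRNA per cell cannot be told apart in bulk RNA. Mitochondrial mRNA took 2.699% to 3.54% of gene counts without ICM, 0.215% to 0.252% in the set of ICM 3-4 with siCTCF, and 0.068% to 0.754% in the 6 remaining libraries, where the ER sums were 6419 to 10379 CPM. The part of either in the ER result was not tested.

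In ICM 1-2 no member of either branch was called against WT, in a comparison where 0% of 16617 genes were called by edgeR. At an unadjusted p under 0.05 there were 4 ER members, 5 ATF4 members and 3664 genes. Both ICM libraries were above both WT libraries for 6 ER and 1 ATF4 genes (29.6% of all genes) and below for 5 ER and 7 ATF4 genes (27.6%). The ER median was 0.23 and the highest and lowest members were DNAJC3 (1.46 ± 0.62, adjusted p = 0.262) and SYVN1 (-1.16 ± 0.29, adjusted p = 0.124). The 2 libraries went apart: 14 of 21 ER genes were more than 1.5 times higher in ICM 2 than in ICM 1 and none was more than 1.5 times lower, with a median ratio of 1.90 and a maximum of 4.16 for DNAJB9. Between the WT libraries no ER gene differed by that much. ICM 1 and 2 also differed in fibroblast markers (19920 and 4972 CPM), mitochondrial mRNA (0.454% and 0.068% of gene counts) and reads given to no gene (35.2% and 26.5%), and the part of these in the split was not tested. With ICM 1 left out, 13 ER genes were called higher and 4 lower than WT, and with ICM 2 left out, 5 higher and 7 lower. These fits set 1 ICM library against the WT pair, which alone gives the spread, and they called 62.1% and 47.9% of all genes, so they describe single libraries. In them DNAJB9 was at 1.42 without ICM 1 and at -0.42 without ICM 2, and MANF was at 0.59 and -0.63. HSPA5 was at -0.54 and -1.37.

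The direct comparison of ICM 3-4 with ICM 1-2 tests whether the ICM libraries differ between the sets, which share the WT libraries as control in the comparisons above. It called 0.840% of 16195 genes (0.333% higher and 0.506% lower) and 1 member, SYVN1, at 47.9 and 46.4 CPM in WT, 23.1 and 20.3 in ICM 1 and 2, and 196 and 178 in ICM 3 and 4. SYVN1 was higher in ICM 3-4 by 2.94 ± 0.42, adjusted p = 0.0454 (edgeR, log2) or 7.65-fold, and its ICM libraries lay above WT in 1 set and below WT in the other. The ER median was 0.76 with 19 of 21 genes positive, beside -0.08 for all genes, and 16 of the 21 had no overlap between the sets, where 31.9% of genes had none in this direction and 24.9% in the other. HSPA5 differed by 2.21 ± 0.58, adjusted p = 0.0894 (edgeR, log2). The call for SYVN1 was lost when only protein-coding genes entered the fit (2.96, adjusted p = 0.0912).

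Some members lay on 1 side of WT in all ICM libraries of both sets, a description chosen after the values were seen. ATF6, ERN1, EIF2AK3, DNAJC3, SEL1L and EDEM1 were above both WT libraries in each of the 4 ICM libraries, 6 of 21 ER genes, where 18.0% of 13158 genes were. No ER gene was below WT in all 4, and no ATF4 gene was above. CEBPB, PHGDH, PSAT1 and CTH, 4 of the 22 ATF4 genes that averaged 1 CPM or more, were below both WT libraries in all 4, where 17.4% of genes were. The share of the 22 was thus near that of all genes. CEBPB, PHGDH, PSAT1 and CTH were also below WT in all 10 libraries of ICM-treated cells, knockdowns included, where 12.1% of 13108 genes were. ATF6, EIF2AK3 and DNAJC3, 3 of 21 ER genes, were above WT in all 10, a share near the 12.3% of all genes.

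In ICM 3-4 the ATF4 branch held genes that changed in both directions. Of its 23 genes, 6 rose and 8 fell against WT, shares near those of all genes (27.8% and 27.3%), and its median was -0.29 (log2). All 5 transcription factors were called, 3 up and 2 down. The summed level of the branch was 3316 and 3175 CPM in WT and 5958 and 5808 CPM in ICM 3 and 4. The feedback genes held both a large rise (PPP1R15A) and the largest falls (CHAC1 and DDIT4), and none of the 6 serine and one-carbon enzymes was called higher.

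ATF4, the factor that gives the branch its name and is controlled mainly at translation, was at 348 and 359.5 CPM in WT, 408 and 421 in siHMGB2, 322 and 888 in ICM 1 and 2, 837 and 870.01 in siSRRM2, 256 and 829.6 in siBANF1, 1046 and 761 in ICM 3 and 4, and 1059 and 808 in siCTCF. It rose in ICM 3-4 by 1.17 ± 0.22, adjusted p = 0.00667 (edgeR, log2), and ICM 2, both siSRRM2 libraries and siBANF1 2 were in the same range as ICM 3 and 4 while ICM 1 and siBANF1 1 were below WT. DDIT3 (CHOP), a transcription factor that PERK and ATF4 induce under lasting stress, was at 28.6 and 25.2 CPM in WT, 25.2 and 27.2 in siHMGB2, 27.8 and 248 in ICM 1 and 2, 49.0 and 54.3 in siSRRM2, 43.4 and 235 in siBANF1, 321 and 389 in ICM 3 and 4, and 354 and 421 in siCTCF. It had the largest rise of all 44 genes in ICM 3-4, 11.6-fold (3.53 ± 0.18, adjusted p = 0.000357, edgeR, log2), and ICM 2 was 8.90 times ICM 1, which lay at the WT level. Of its exon bases, 39.6% overlap other genes in GENCODE v29, mostly on the opposite strand, so part of its counts depends on how the authors assigned reads.

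ATF5, a factor related to ATF4, rose 4.39-fold in ICM 3-4 (2.13 ± 0.17, adjusted p = 0.000631, edgeR, log2). CEBPB, a C/EBP partner of ATF4, fell by 2.07 on the log2 scale (edgeR adjusted p = 0.00116), and NUPR1, a small stress-induced chromatin protein, fell by 1.53 (edgeR adjusted p = 0.00744). PPP1R15A (GADD34), which brings the phosphatase that reverses the action of PERK, was at 151 and 138 CPM in WT, 119.8 and 624 in ICM 1 and 2, and 1346 and 1502 in ICM 3 and 4. It rose 8.65-fold in ICM 3-4 (3.11 ± 0.18, adjusted p = 0.00041, edgeR, log2).

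The other feedback genes did not follow it. CHAC1, an enzyme that breaks down glutathione and a usual target of ATF4 and CHOP, was at 120.4 and 126 CPM in WT, 200.2 and 252 in siHMGB2, 181 and 36.7 in ICM 1 and 2, 86.3 and 87.0 in siSRRM2, 319 and 49.6 in siBANF1, 12.2 and 5.68 in ICM 3 and 4, and 10.6 and 5.79 in siCTCF. It was the lowest of the branch in ICM 3-4 (-3.97 ± 0.39, adjusted p = 0.000926, edgeR, log2), and ICM 1 and siBANF1 1 were above WT while ICM 2 and siBANF1 2 were below. DDIT4, an inhibitor of the growth kinase mTORC1, was at 55.0 and 51.2 CPM in WT, 56.1 and 72.3 in siHMGB2, 62.9 and 11.0 in ICM 1 and 2, 35.5 and 35.2 in siSRRM2, 98.5 and 14.6 in siBANF1, 6.53 and 4.57 in ICM 3 and 4, and 4.75 and 3.73 in siCTCF. It changed in ICM 3-4 by -3.44 ± 0.25, adjusted p = 0.000556 (edgeR, log2), and its levels in ICM 2 and siBANF1 2 were again low. An antisense gene overlaps 41.2% of the exon bases of DDIT4.

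TRIB3, a pseudokinase that restrains ATF4, was at 31.4 and 27.8 CPM in WT, 34.8 and 43.7 in siHMGB2, 35.1 and 38.3 in ICM 1 and 2, 29.1 and 28.0 in siSRRM2, 51.0 and 33.1 in siBANF1, 25.8 and 29.6 in ICM 3 and 4, and 24.98 and 33.8 in siCTCF. Its levels in ICM 3-4 overlapped those of WT (-0.29 ± 0.18, adjusted p = 0.213, edgeR, log2), and its highest level was 51.0 CPM, in siBANF1 1. DDIT3 and PPP1R15A were therefore many times higher than in WT in the libraries in which CHAC1 and DDIT4 were many times lower and TRIB3 was near the WT level.

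**Figure D3:**
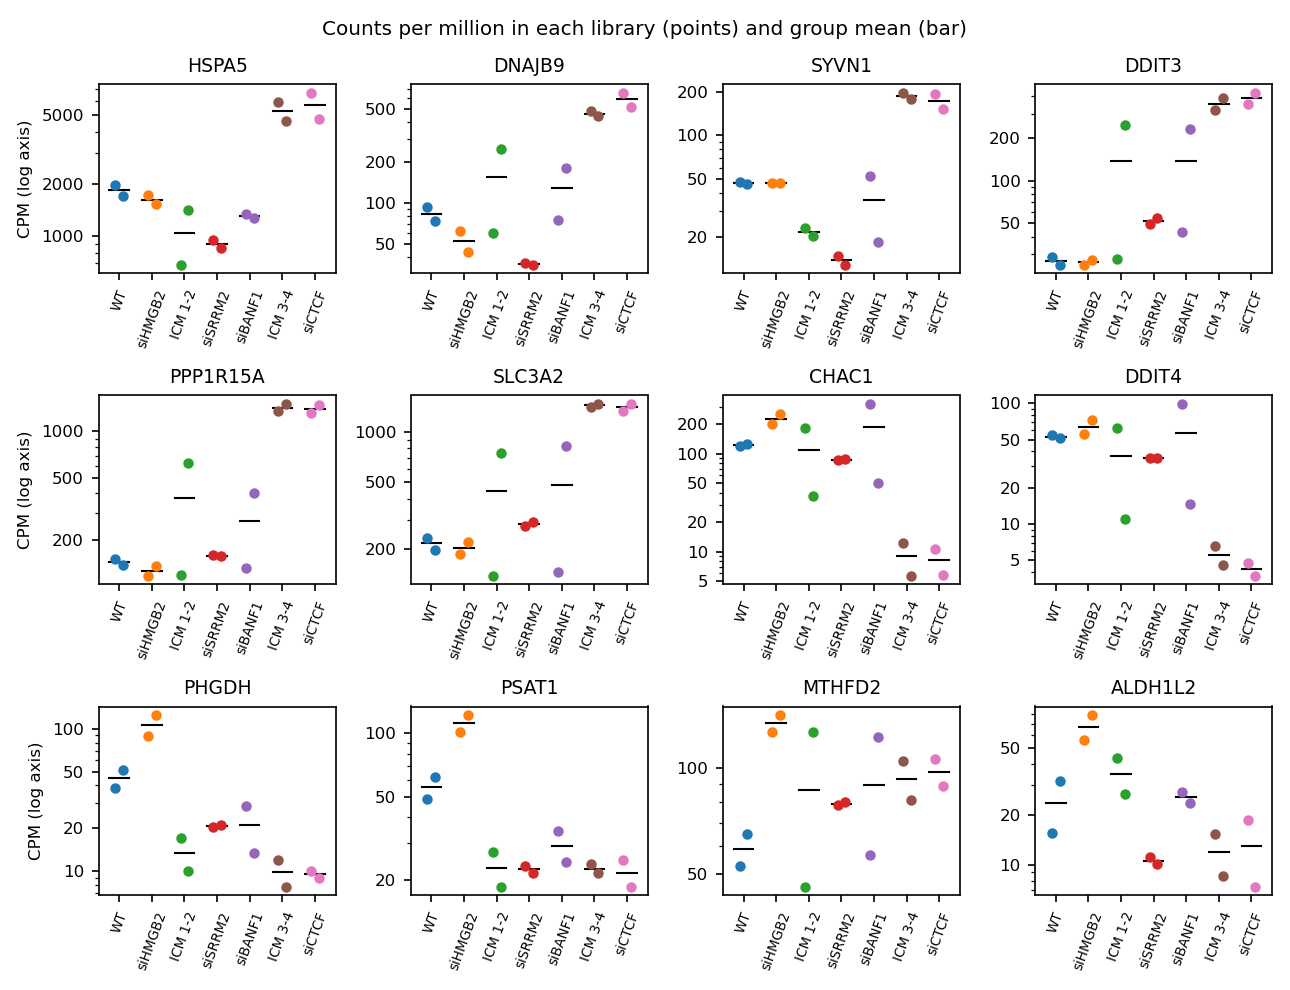
CPM on a log axis of 12 members in each library (points) with the mean of the 2 libraries of each group (bar). DDIT3, PPP1R15A and SLC3A2 are highest in ICM 3-4 and siCTCF, CHAC1 and DDIT4 are lowest there, PHGDH, PSAT1, MTHFD2 and ALDH1L2 are highest in siHMGB2, and the points of ICM 1-2 and of siBANF1 lie far apart for most of the genes.

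Serine synthesis runs from PHGDH through PSAT1 to PSPH and feeds one-carbon units to mitochondrial SHMT2, MTHFD2 and ALDH1L2. PHGDH, the entry enzyme, was at 38.1 and 51.6 CPM in WT, 89.1 and 125 in siHMGB2, 17.03 and 9.97 in ICM 1 and 2, 20.4 and 20.96 in siSRRM2, 28.8 and 13.4 in siBANF1, 11.96 and 7.77 in ICM 3 and 4, and 10.1 and 9.0 in siCTCF. PSAT1, the aminotransferase of the pathway, was at 48.9 and 62.2 CPM in WT, 101 and 122 in siHMGB2, 27.2 and 18.7 in ICM 1 and 2, 23.5 and 21.8 in siSRRM2, 34.2 and 24.4 in siBANF1, 23.8 and 21.7 in ICM 3 and 4, and 24.9 and 18.7 in siCTCF. Both were above WT in both siHMGB2 libraries and below WT in every library of ICM-treated cells. In ICM 3-4 PHGDH changed by -2.36 ± 0.30, adjusted p = 0.00181 and PSAT1 by -1.47 ± 0.19, adjusted p = 0.00205 (edgeR, log2), while the other 4 of these 6 enzymes were not called.

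MTHFD2, a mitochondrial folate enzyme, was at 52.6 and 65.1 CPM in WT, 126 and 141 in siHMGB2, 46.1 and 127 in ICM 1 and 2, 78.6 and 80.0 in siSRRM2, 56.6 and 123 in siBANF1, 105 and 81.1 in ICM 3 and 4, and 106 and 88.8 in siCTCF. The highest level of MTHFD2 was in siHMGB2 2, and siHMGB2 1 was level with ICM 2. In ICM 3-4 its difference from WT was 0.48 ± 0.21, adjusted p = 0.0977 (edgeR, log2). Of its exon bases, 33.2% overlap other genes on the opposite strand. ALDH1L2, an enzyme of mitochondrial formate metabolism, was at 15.4 and 31.7 CPM in WT and 55.8 and 79.2 CPM in siHMGB2, so the WT libraries were far apart but did not reach siHMGB2.

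ASNS, which makes asparagine and is the textbook target of ATF4 in amino acid shortage, was counted at almost no reads. It was at 0.536 and 1.21 CPM in WT, 0.539 and 1.46 in siHMGB2, 0.943 and 0.387 in ICM 1 and 2, 0.427 and 0.368 in siSRRM2, 0.735 and 0.223 in siBANF1, 0.418 and 0.118 in ICM 3 and 4, and 0.179 and 0.373 in siCTCF. No direction can be read from these levels, and 44.6% of its exon bases in GENCODE v29 lie in another gene on the same strand, whose reads the authors' counting may have left out as ambiguous. It was too low to be tested in siCTCF against ICM 3-4, so 43 members were tested there and all 44 in the other 6 comparisons.

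The amino acid carriers differed. SLC3A2, the shared heavy chain of several carriers, was at 234 and 198 CPM in WT, 138 and 748 in ICM 1 and 2, and 1420.3 and 1465 in ICM 3 and 4. It rose 5.87-fold in ICM 3-4 (2.55 ± 0.19, adjusted p = 0.000555, edgeR, log2), and SLC7A5, the light chain that carries leucine, rose 2.07-fold (1.05 ± 0.18, adjusted p = 0.00474), a call just missed without WT 1 (0.96, adjusted p = 0.0517). SLC7A11, the cystine carrier, was at 275 and 302 CPM in WT, 168 and 163 in siHMGB2, 263 and 202 in ICM 1 and 2, 186 and 182 in siSRRM2, 71.6 and 235 in siBANF1, 346 and 413 in ICM 3 and 4, and 412 and 378 in siCTCF. It differed in ICM 3-4 by 0.21 ± 0.16, adjusted p = 0.315 (edgeR, log2), and its lowest level was in siBANF1 1.

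STC2, a secreted glycoprotein induced by ER stress, was at 583 and 541 CPM in WT, 459 and 493 in siHMGB2, 1263 and 539 in ICM 1 and 2, 265 and 270.5 in siSRRM2, 1286 and 598 in siBANF1, 257 and 148 in ICM 3 and 4, and 235 and 145 in siCTCF. It changed in ICM 3-4 by -1.65 ± 0.30, adjusted p = 0.00596 (edgeR, log2), and ICM 1 and siBANF1 1 were far above every other library. VLDLR, a lipoprotein receptor that ATF4 can induce, changed by -2.27 ± 0.20, adjusted p = 0.000693 in ICM 3-4. Against WT, VLDLR was at -1.39 in ICM 2 alone and at 1.22 in ICM 1 alone, with the spread taken from the WT pair.

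Genes of the ATF4 response outside the members, from a list of 32, were read in ICM 3-4. Of the 30 tested, 6 rose and 6 fell, fewer in each direction than the 27.8% and 27.3% of all genes, with a median of -0.17. ATF3, a factor that ATF4 induces, rose most (2.28 ± 0.17, adjusted p = 0.000589, edgeR, log2). CBS, an enzyme of cysteine synthesis, fell most, from a mean of 7.09 CPM to 0.35 CPM (-4.51 ± 0.71, adjusted p = 0.00378). Among the 12 tRNA synthetases of the list, 3 rose and none fell.

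In ICM 1-2 the ATF4 branch also differed between the libraries. Its median was -0.16 against WT, and the highest members were DDIT3 (2.22 ± 0.96, adjusted p = 0.265), PPP1R15A (1.24) and SLC3A2 (0.91), none of them called by edgeR. In ICM 2 against ICM 1, 9 of 23 genes were more than 1.5 times higher and 8 more than 1.5 times lower, from 0.174 for DDIT4 to 8.90 for DDIT3. The siBANF1 libraries parted the same way, with 8 genes more than 1.5 times higher and 8 lower in siBANF1 2, from 0.148 for DDIT4 to 5.65 for SLC3A2. The siSRRM2 libraries had no member of either branch that differed by that much. CEBPB had the lowest value against WT (-2.63 ± 0.45, adjusted p = 0.0948, edgeR), and it was at -3.10 without ICM 1 and at -2.29 without ICM 2.

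In untreated cells with the HMGB2 knockdown, several genes of amino acid synthesis were higher than in WT, while the ER branch stayed near WT. WT is not labelled as given a control siRNA, so transfection and loss of HMGB2 cannot be told apart here. Against WT, 8 of 23 ATF4 members rose and 3 fell, where 6.14% of 15338 genes rose and 4.74% fell (10.9% in all), and 0 ER members rose and 1 fell. Both siHMGB2 libraries were above both WT libraries for 13 ATF4 and 4 ER genes (22.0% of all genes) and below for 7 ATF4 and 6 ER genes (32.5%). The median of the ATF4 branch was 0.30 and that of the ER branch 0.00, as was that of all genes. Of the 6 serine and one-carbon enzymes, 5 rose. Their rises were 3.00-fold for ALDH1L2 (1.59 ± 0.26, adjusted p = 0.00128, edgeR, log2), 2.50-fold for PHGDH (1.32 ± 0.18, adjusted p = 0.00039), 2.38-fold for MTHFD2 (1.25 ± 0.14, adjusted p = 0.000112), 2.10-fold for PSAT1 (1.07 ± 0.15, adjusted p = 0.000479) and 1.86-fold for PSPH (0.89 ± 0.18, adjusted p = 0.00589). The sixth, SHMT2, was at 126 and 117 CPM in WT and 137 and 183 CPM in siHMGB2 (0.46 ± 0.15, adjusted p = 0.0712).

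The other members that rose in siHMGB2 were CHAC1 (0.94 ± 0.15, adjusted p = 0.00102, edgeR, log2), NUPR1 (0.94 ± 0.17, adjusted p = 0.00331) and SLC7A5 (0.92 ± 0.17, adjusted p = 0.0027). Those that fell were CTH, an enzyme that makes cysteine (-0.97 ± 0.17, adjusted p = 0.00259, edgeR, log2), CEBPB (-0.79 ± 0.16, adjusted p = 0.00522) and SLC7A11 (-0.74 ± 0.13, adjusted p = 0.0027). The mRNA of ATF4 itself differed by 0.29 ± 0.14, adjusted p = 0.207, DDIT3 by 0.03 and TRIB3 by 0.47 ± 0.15, adjusted p = 0.0595 (edgeR, log2). DNAJB9 was the ER member that fell (-0.61 ± 0.17, adjusted p = 0.0317, edgeR, log2), and the call was lost without WT 1 (-0.41, adjusted p = 0.322) and without siHMGB2 2 (-0.38, adjusted p = 0.202). CEBPB lost its call without WT 1 (-0.58, adjusted p = 0.0846) and PSPH without siHMGB2 2 (0.65, adjusted p = 0.063). In a single fit of all 14 libraries, which share one estimate of the spread, 0 members and 0 of all 19126 genes were called in siHMGB2. The log2 fold changes of the same 12 members ran from -0.98 (CTH) to 1.58 (ALDH1L2) in that fit.

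**Figure D4:**
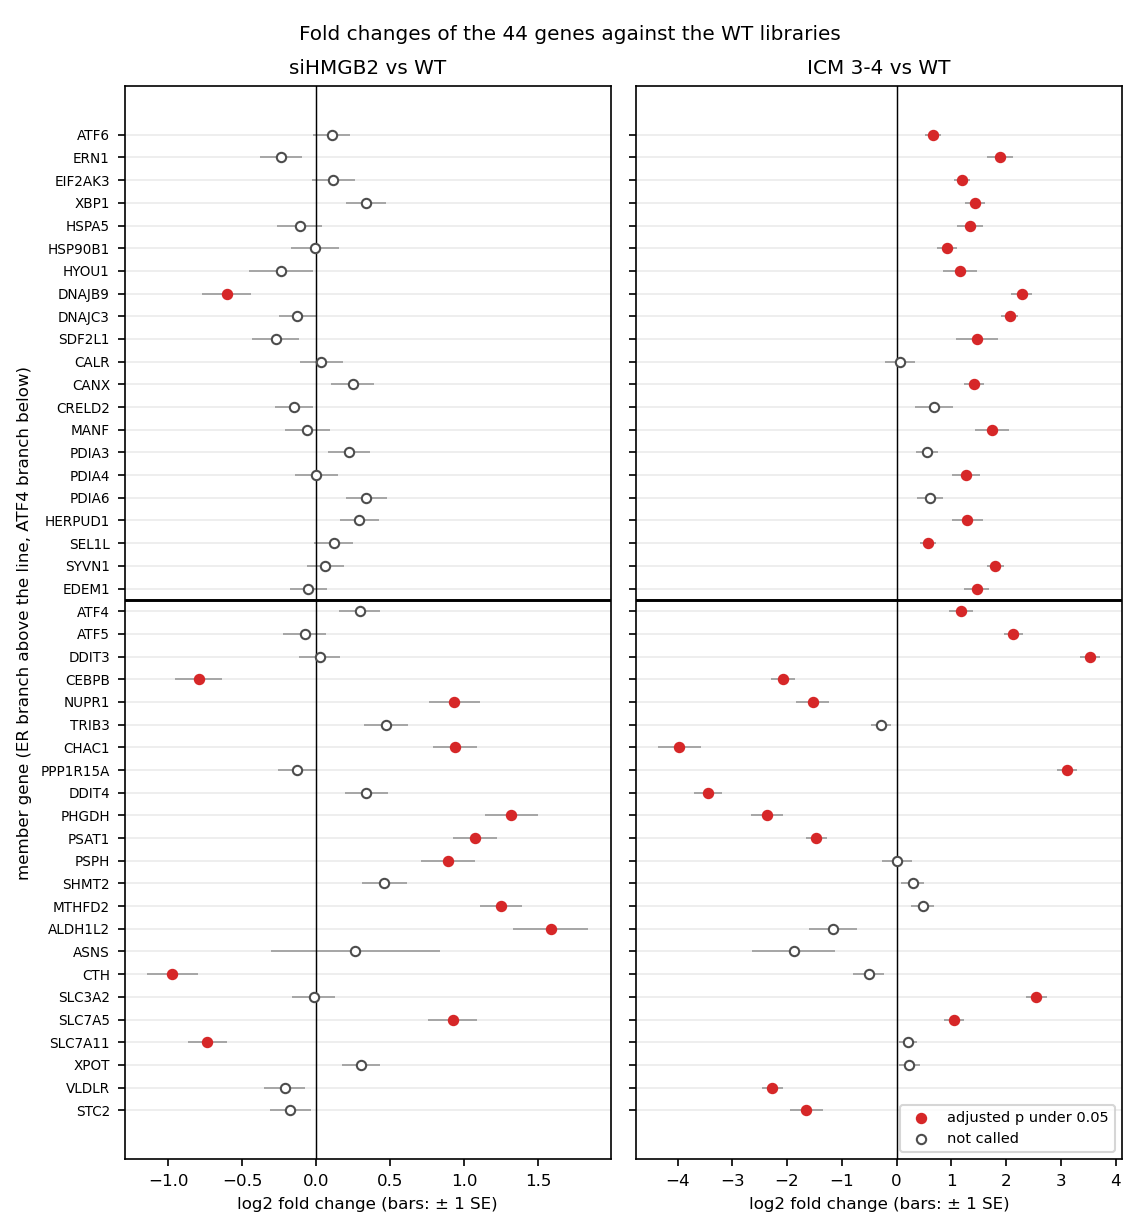
Log2 fold change of each member against WT with its standard error in siHMGB2 (left) and ICM 3-4 (right), filled where the adjusted p was under 0.05, on axes of different width. In siHMGB2 the ER genes lie near 0 and the serine and one-carbon enzymes to the right, and in ICM 3-4 the ER genes lie to the right and the ATF4 genes on both sides.

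Genes of the same pathway that are not members were read for siHMGB2 as well. Of the 30 further ATF4 genes tested, 13 rose and 3 fell, beside 6.14% and 4.74% of all genes, with a median of 0.42. SLC1A4, a carrier of serine and other neutral amino acids, rose most (1.57 ± 0.21, adjusted p = 0.000332, edgeR, log2), GDF15, a stress cytokine, fell most (-1.23 ± 0.20, adjusted p = 0.00129), and 5 of 12 tRNA synthetases rose with none falling. Of the 38 further ER genes tested, 6 rose and 2 fell, with a median of 0.13, beside the same shares of all genes. CREB3L1, a membrane-bound factor that drives collagen secretion, rose most (1.54 ± 0.20, adjusted p = 0.000342), and DERL1, an ERAD channel protein, fell most (-0.46 ± 0.13, adjusted p = 0.0331). Fibroblast markers moved as well, with 4 of 10 higher and 2 lower, and their part in the result was not tested.

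The ICM 3-4 and siHMGB2 comparisons use the same WT libraries, so their values are given side by side and not correlated. PHGDH was at 1.32 in siHMGB2 and -2.36 in ICM 3-4, PSAT1 at 1.07 and -1.47, CHAC1 at 0.94 and -3.97, and NUPR1 at 0.94 and -1.53, each called higher in the former and lower in the latter. SLC7A5 was called higher in both (0.92 and 1.05) and CEBPB lower in both (-0.79 and -2.07). DDIT3 and PPP1R15A, at 3.53 and 3.11 in ICM 3-4, were at 0.03 and -0.13 in siHMGB2.

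The knockdowns in ICM-treated cells gave no called member, and siSRRM2 and siBANF1 share ICM 1-2 as their control. In siSRRM2 against ICM 1-2, 0% of 16828 genes were called by edgeR, and 4 ER and 4 ATF4 members had an unadjusted p under 0.05, as did 1488 genes. Both siSRRM2 libraries were below both ICM libraries for 10 ER and 7 ATF4 genes (20.8% of all genes) and above for 0 ER and 3 ATF4 genes (22.2%). The medians were -0.34 (ER) and -0.40 (ATF4), beside -0.07 for all genes. The lowest ER members were DNAJB9 (-2.10 ± 0.69), XBP1 (-1.31 ± 0.53) and EDEM1 (-1.08 ± 0.30), and the lowest ATF4 members STC2 (-1.80 ± 0.55), ALDH1L2 (-1.76 ± 0.38) and DDIT3 (-1.36 ± 1.00). PSPH was the highest (1.07 ± 0.35). The result rests on which ICM library is the control: 38 members were called without ICM 1 and 40 without ICM 2, each time against a lone ICM library assumed to vary like the siSRRM2 pair, where 59.1% and 67.8% of all genes were called. DDIT3 was at -2.20 without ICM 1 and 0.84 without ICM 2, and CHAC1 at 1.30 and -1.11.

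In siBANF1 against ICM 1-2, 0% of 17616 genes were called, and no member but 24 genes had an unadjusted p under 0.05 by edgeR. The medians were -0.05 (ER) and 0.06 (ATF4). The lowest member was VLDLR (-1.61 ± 0.94) and the highest CHAC1 (0.76 ± 1.19), and the arms overlapped for all members except SEL1L (-0.75 ± 0.46), where 7.86% of genes were apart in that direction and 5.94% in the other. The standard errors of this fit, up to 1.23 (log2, DDIT4), take no account of library numbers. By number, DDIT4 went from 62.9 CPM in ICM 1 to 98.5 in siBANF1 1 and from 10.98 in ICM 2 to 14.6 in siBANF1 2, and VLDLR from 147 to 38.6 and from 28.2 to 20.02. With the number as a block, 0 members were called (VLDLR -1.21, edgeR adjusted p = 0.38, and DDIT4 0.53, edgeR adjusted p = 0.585). The siBANF1 libraries resembled the ICM library of the same number more than each other: the median chi-square per gene was 11.5 between ICM 1 and siBANF1 1 and 3.23 between ICM 2 and siBANF1 2.

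In siCTCF against ICM 3-4, 0% of 14704 genes were called, and no member but 18 genes had an unadjusted p under 0.05 by edgeR. The medians were 0.07 (ER) and -0.02 (ATF4), and the members lay between -0.38 (DDIT4, ± 0.36) and 0.36 (DNAJB9, ± 0.19). DNAJB9, HSP90B1 (0.27), EIF2AK3 (0.19) and DNAJC3 (0.15) were above ICM 3 and 4 in both siCTCF libraries, 4 of 21 ER genes, where 6.69% of genes were, and no member was below in both, where 9.13% of genes were. The knockdown was uneven, with CTCF at 71.5 CPM in siCTCF 1 and 22.97 CPM in siCTCF 2. ICM 3 and siCTCF 1 (median chi-square 2.49), and ICM 4 and siCTCF 2 (1.75), were closer than the replicates of either group (10.1 and 7.23).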

How the data were processed

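RNA of 14 libraries was read as the deposited whole-number counts per gene symbol; the authors aligned with STAR 2.7.3a to hg38 and counted with HTSeq 0.12.4, per the submitters' processing notes, which also name DESeq2 1.36.0. The annotation release and strand setting are not given in the sources used here, and reads that HTSeq set aside as ambiguous (1.58% to 9.53%) or gave to no gene (12.75% to 41.78%) stayed out of library sizes. CPM is a count scaled to a common total of gene counts (22336161 to 58257456 per library).

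Each comparison was fitted on its own 4 libraries with edgeR 4.0.16 (limma 3.58.1, R 4.3.3): filterByExpr, TMM scaling, quasi-likelihood F-test and Benjamini-Hochberg adjustment over all genes tested, called at an adjusted p under 0.05. Errors are standard errors of the log2 fold change. Alternatives were RLE and total-count scaling, other filters, DESeq2 1.42.0, a single fit of 14 libraries, protein-coding genes only, a replicate block, other ICM controls and leaving out each library. The members and lists were chosen with earlier results of these data known. Named genes are 19 core members, all called members, the 3 highest and 3 lowest per branch and comparison, the extreme called genes of the other lists, and the knockdown targets.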

Additional observations from a re-analysis of the deposited data

Results flagged for a closer look

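SYVN1, the ubiquitin ligase of ER-associated degradation, differed between the ICM sets by 2.94 (log2, ICM 3-4 over ICM 1-2, edgeR adjusted p = 0.0454), with 23.1 and 20.3 CPM in ICM 1 and 2, 196 and 178 CPM in ICM 3 and 4, and WT between them. It was the only member whose effect of ICM against WT differed between the sets by this test, which called 0.84% of all genes. With protein-coding genes only, 0 members were called. DESeq2 called 14 members (14.1% of all genes called) and the single fit of 14 libraries called 15 (19.5%). Treatment set, small RNA share and other features that separate the sets cannot be told apart.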

How the results depend on the processing

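No member called in the main fits changed direction under any alternative run. Such members exist only in siHMGB2 against WT, ICM 3-4 against WT and ICM 3-4 against ICM 1-2. Some members not called in a main fit were called in the opposite direction in an alternative run. This was seen in ICM 1-2 against WT, ICM 3-4 against WT and siSRRM2 against ICM 1-2. Low counts limit ASNS (at most 1.46 CPM), and 2 libraries a group limit every comparison. In siHMGB2 against WT, 12 members were called, beside 10.9% of all genes. A single fit of 14 libraries called 0 members and 0 of all 19126 genes there. In ICM 3-4 against WT, 31 members were called, beside 55.2% of all genes, and the ER median was 0.89 to 1.56 with 1 library left out. The single fit of 14 libraries called 25 members there, beside 30.3% of all genes. It called 12 ER genes higher, against 17 in the main fit. Total-count scaling gave an ER median of 1.47 and an ATF4 median of -0.10. In ICM 1-2 against WT the count went from 0 to 5 with no filter, 3 with DESeq2, 4 in the single fit, 2 with the replicate block and 1 with all 4 ICM libraries (ER median 0.82), and from 0 to 34 with 1 library left out (ATF4 median -0.55 to 0.14). In ICM 3-4 against ICM 1-2 the count went from 1 to 15 with no filter, 14 with DESeq2, 15 in the single fit, 17 with the replicate block and 0 with protein-coding genes only, where SYVN1 had an edgeR adjusted p of 0.0912; it was 6 without ICM 1, 27 without ICM 2 and 3 without ICM 3 (1 to 27 in all). In siSRRM2 against ICM 1-2, DESeq2 called 1 and ICM 3-4 as control gave 33 (ER median -1.62), with 0 to 40 when 1 library was left out. In siBANF1, ICM 3-4 as control gave an ER median of -0.76, and leaving out 1 library gave ATF4 medians of -0.32 to 0.26. In siCTCF, leaving out 1 library gave ER medians of -0.21 to 0.34 and ATF4 medians of -0.18 to 0.11. In ICM 1-2 against WT the share of all genes called also rose from 0%. It was 8.88% with no filter, 11.5% with DESeq2, 13.5% in the single fit, 7.12% with the block and 1.28% with 4 ICM libraries. In ICM 3-4 against ICM 1-2 it was 9.61% with no filter, 14.1% with DESeq2, 19.5% in the single fit and 16.7% with the block. In siSRRM2 it was 1.22% with DESeq2 and 49.6% with ICM 3-4 as control. Leaving out a library raised member counts there only where that share rose too. The cause of these changes was not tested. The labels do not say what a shared replicate number marks. Deviations of same-numbered libraries correlated with those of their ICM controls at 0.85 for siBANF1 and 0.81 for siCTCF. In the other comparisons the correlation was -0.18 to 0.27. Each rests on 2 pairs, a hint of pairing from the data and not the design. The replicate block called 14 members in siHMGB2 (15.9% of all genes called) and 33 in ICM 3-4 against WT (54.6%). It called 0 members in siSRRM2 (0.202%), siBANF1 (0.00568%) and siCTCF (0.0272%).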
